A study of Mus musculus with 2 samples.

Results

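Heat shock proteins and DnaJ chaperones were followed through single cells of mouse intestinal organoids that carry a mutation in Apc. The members are all rows of the expression table whose gene symbol begins with Hspa, Hspb, Hspd, Hspe, Hsph, Hsp90 or Dnaj, which gave 62 of 13373 genes. Of these, 39 are DnaJ genes and 23 are not. By main location of the protein, 25 were assigned to the cytosol, 13 to the endoplasmic reticulum (ER), 8 to the mitochondrion and 16 to other or mixed sites. 3 members share only the first letters of the symbol with the chaperones: Hspb11 encodes an intraflagellar transport protein, Hspbap1 a protein that associates with a small heat shock protein, and Hspbp1 an exchange factor of HSP70. For a count of changes, at least 10% of the cells in 1 of the libraries had to hold a UMI of the gene (a unique molecular identifier, which stands for 1 captured transcript). 52 members passed, and the other 10 were Hspa1a, Hspa1b, Hspb2, Hspb6, Hspb8, Dnajb3, Dnajb5, Dnajc16, Dnajc27 and Dnajc28.

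There were 2 libraries of Apc mutant organoids from C57Bl mice aged 3-4 months, one treated with DBZ and one with DMSO. DBZ inhibits gamma-secretase, the protease that cuts Notch receptors and so lets their signal reach the nucleus, and DMSO was the solvent control. Both samples carry the same treatment text, which lists 300 nM 4-OH-tam (4-hydroxytamoxifen, a ligand that switches on tamoxifen-inducible Cre) and 10 uM DBZ, and the titles were followed for the groups. The Apc allele, any Cre driver and how many mice the organoids came from are not given in the labels.

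The DBZ library held 1241 cells with 16168229 UMIs and the DMSO library 968 cells with 13083018 UMIs. A median cell had 10901 UMIs with DBZ and 11183 with DMSO, and 3 cell barcodes occurred in both libraries. With 1 library per group, no difference between treatments has a replicate check and no p-value was computed. The values therefore compare 2 libraries, and every interval covers counting error only. Levels are UMIs per 10000 UMIs of a cell, averaged over cells. They were not divided by transcript length, so an order among genes is an order of captured UMIs. A change is log2 of the DBZ level over the DMSO level, after adding 0.05 to each, and a change of at least 1.5-fold (0.585 on the log2 scale) was counted as higher or lower. The epithelial identity of the cells was checked on 6 marker genes, all 6 of which were present. Their sum was 35.3 with DBZ and 55.9 with DMSO. Of the fibroblast, immune and endothelial markers, 1 of 8, 1 of 8 and 1 of 5 were in the table. The fibroblast marker present was Vim, at 5.73 with DBZ and 11.7 with DMSO. From a library mean alone, fewer cells of a type and a lower level per cell cannot be told apart. Shares of cells and levels by cluster are therefore given for some members.

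Molecular chaperones bind unfolded stretches of other proteins and let them fold. HSP70 proteins do this in cycles of ATP hydrolysis. DnaJ proteins deliver the client and start the hydrolysis, and exchange factors of the HSP110 type release the nucleotide. HSP90 proteins act later, on nearly folded clients such as kinases and receptors, and each compartment of the cell has its own set. Heat shock factors switch on the cytosolic genes, and the unfolded protein response switches on those of the ER, which is large in secretory cells of the intestine such as Paneth and goblet cells.

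Both kinds of control leave a recognisable sequence in promoters, and 2 motifs were searched on both strands of the RefSeq window from 250 bases before to 50 bases after each start (build GRCm38.p6, the assembly also called mm10). A window was at hand for 49 of the 62 members. Hsp90ab1, Hspa8, Hsp90aa1 and Hspa9 were among those without a window and were not searched. The ER stress element, CCAAT and CCACG with any 9 bases between them, was present in 3 members, all of the ER: Hspa5, Hsp90b1 and Dnajc3. These are 27.3% of the 11 ER members with a window, against 0.160% of the 9985 genes of the table with a window (16 genes). The heat shock element was searched as GAA, TTC and GAA with any 2 bases between neighbours, which reads as TTC, GAA and TTC from the other strand. It was present in 4 members (8.16%): Hspd1, Hspe1, Dnajb6 and Hsph1. Among genes of the table the share was 0.571% (57 genes). The stress-inducible genes Hspa1a, Hspa1b and Dnajb1 had windows without a match to this exact pattern. Looser forms of the element were not searched, so a missing match does not show that a gene lacks the element. The box CCAAT alone was no more common in the members (42.9%) than in the genes of the table (43.3%). A match describes these letters only, and no binding was measured.

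The matches in the ER members are shown because Hspa5, Hsp90b1 and Dnajc3 are the best known ER chaperone genes here. Their levels were higher in the DBZ library, as were those of all 12 ER members seen in enough cells. Their changes were 0.32, 0.23 and 0.38, against an ER median of 0.35. Dnajc10, which had the largest change of the ER members (0.64), had a window without a match. Capitals mark the ER stress element, and each stretch has 30 bases written on the strand of the gene. The Hspa5 match lay 65 to 47 bases before the RefSeq start, the Dnajc3 match 105 to 87 bases before it, and the Hsp90b1 promoter held 2 matches, 212 to 194 and 107 to 89 bases before the start, the latter on the opposite strand. In the GENCODE M21 annotation the Hspa5 match fell in an exon of another transcript of the gene, and the matches of Dnajc3 and Hsp90b1 lay outside their exons.
Hspa5, chr2:34772020-34772049, plus strand: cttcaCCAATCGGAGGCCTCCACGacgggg
Dnajc3, chr14:118937822-118937851, plus strand: cacaaCCAATCAGCGCCAACCACGacccgg
Hsp90b1, chr10:86705632-86705661, minus strand: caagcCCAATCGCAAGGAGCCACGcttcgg
Hsp90b1, chr10:86705527-86705556, minus strand: gagtgCGTGGTGAGGCACGATTGGtgagtt

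The heat shock elements of Hspd1 and Hspe1 are shown because they are a single stretch of DNA. These 2 genes encode the mitochondrial chaperonin HSP60 and its lid HSP10 and stand head to head on chromosome 1, with Hspd1 at 55077835 to 55088243 on the minus strand and Hspe1 at 55088132 to 55091307 on the plus strand. Both lines below give the same 30 bases, read once for each gene, with capitals for the element and its overlapping copy. The element lay 144 to 127 bases before the RefSeq start of Hspd1, in an exon of another of its transcripts, and 89 to 72 bases before that of Hspe1. Dnajb6, which keeps proteins from aggregating, had a match 46 to 34 bases before its start, inside an exon of another transcript.
Hspd1, chr1:55088053-55088082, minus strand: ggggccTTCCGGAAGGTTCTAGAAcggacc
Hspe1, chr1:55088053-55088082, plus strand: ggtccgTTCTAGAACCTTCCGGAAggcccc
Dnajb6, chr5:29735844-29735873, plus strand: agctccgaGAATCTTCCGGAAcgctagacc

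The members as a whole took nearly the same part of the transcriptome in both libraries, but the compartments differed. Summed over all 62, they gave 79.0 UMIs per 10000 with DBZ and 83.7 with DMSO, and the middle part of the cells, from the lower to the upper quartile, spanned 64.5 to 91.5 and 69.4 to 97.4. These ranges overlap over most of their length. Of the 52 members seen in enough cells, 2 were higher by at least 1.5-fold in the DBZ library, Dnajc12 and Dnajc10, and 1 was lower, Dnajb1. Among all 8797 genes seen in enough cells, 8.55% were higher and 4.66% lower by that margin, and the members' counts of 2 and 1 of 52 lie below those shares. By any amount, 28 members were higher and 24 lower, with a median change of 0.05. Over all genes, 63.2% were higher and the median was 0.11. The 34 DnaJ members had a median of 0.11 (22 higher), and the 18 others a median of -0.14 (6 higher).

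**Figure D1:**
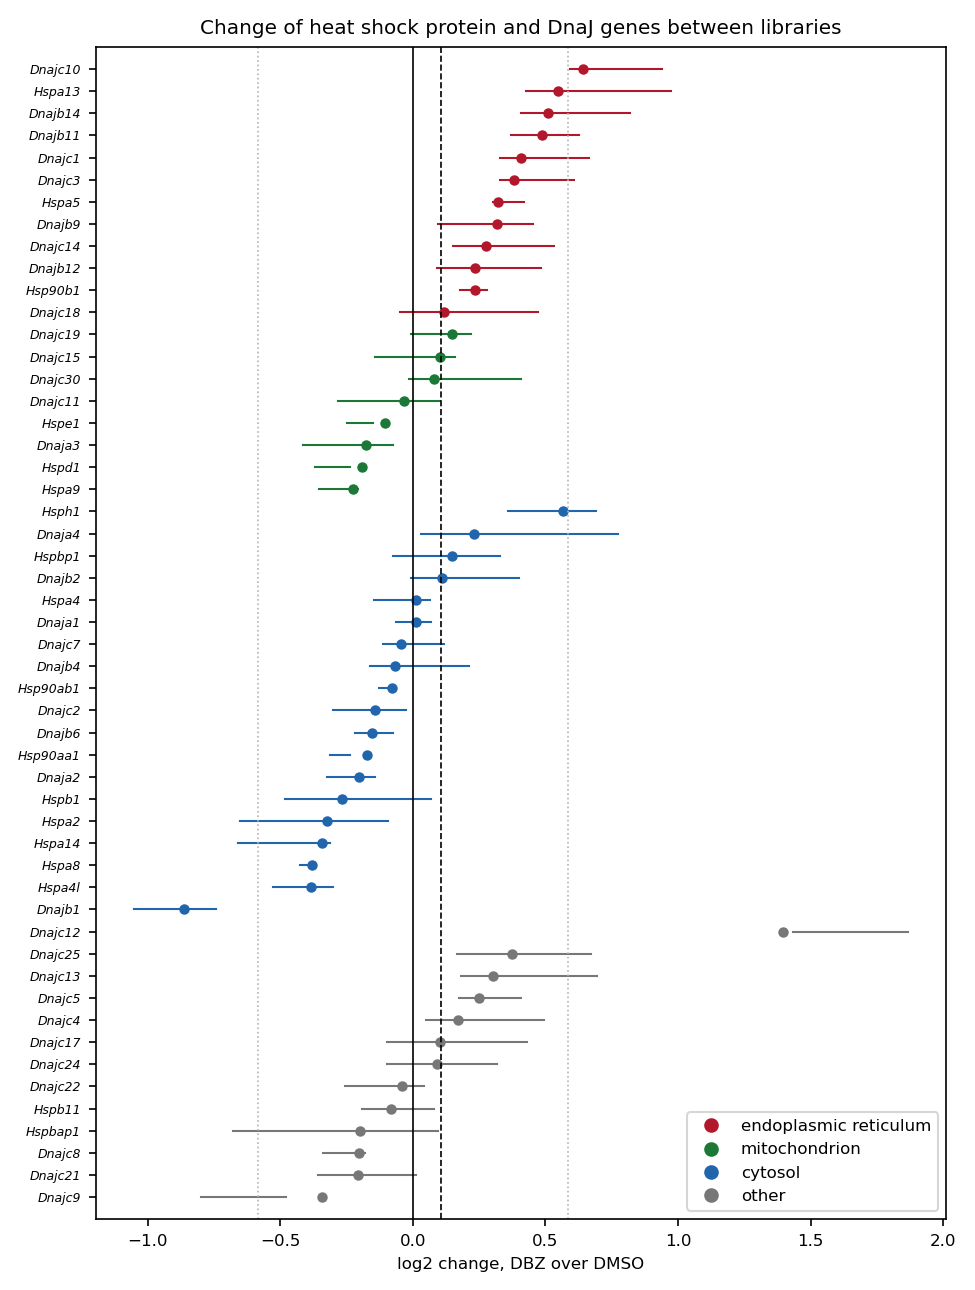
Log2 change of each of the 52 heat shock protein and DnaJ genes seen in enough cells, DBZ over DMSO (horizontal axis). Points are changes of the mean level over cells, lines the exact 95% counting interval of the ratio of pooled UMIs, in which deep cells count more and which so need not hold the point. The dashed line is the median of all genes (0.11) and dotted lines mark 1.5-fold. All 12 ER genes lie right of 0, while 13 of 19 cytosolic genes lie left of it.

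The ER members were higher in the DBZ library as a group. All 12 that were seen in enough cells had a higher level, with changes from 0.12 to 0.64 and a median of 0.35. Their summed level, over all 13, was 12.8 with DBZ and 10.2 with DMSO. Dnajc18 was the lowest at 0.12, close to the median of all genes, and its change turned to -0.01 once every cell was thinned to 5000 UMIs. Only Dnajc10 reached 1.5-fold.

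Hspa5 encodes BiP, the HSP70 of the ER which binds unfolded clients and holds the stress sensors of the ER inactive. It lies on chromosome 2, 34771970 to 34777547, plus strand. Its level was 3.89 with DBZ and 3.11 with DMSO, a change of 0.32, and pooled UMIs gave 0.36 (95% counting interval 0.30 to 0.42). Hsp90b1 encodes GRP94, the HSP90 of the ER, which folds integrins and Toll-like receptors. Its level was 4.42 with DBZ and 3.75 with DMSO, a change of 0.23 (pooled interval 0.18 to 0.28). After thinning, at least 3 Hspa5 UMIs were held by 27.9% of the DBZ library (exact interval 25.4 to 30.5%) and 21.5% of the DMSO library (18.9 to 24.2%), so the Hspa5 distribution over cells overlapped widely between the libraries.

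Dnajc10 encodes ERdj5, a reductase that opens wrong disulfide bonds before a protein is removed from the ER. It lies on chromosome 2, 80315466 to 80354043, plus strand. Its level was 0.53 with DBZ and 0.32 with DMSO, a change of 0.64 (pooled interval 0.59 to 0.94), and the share of cells with a Dnajc10 UMI was 44.2% for DBZ (41.4 to 47.0%) and 31.2% for DMSO (28.3 to 34.2%). Some of the remaining ER members were chosen for description after their values were seen. Dnajb11 (ERdj3), which binds clients and hands them to BiP, had 0.85 and 0.59, a change of 0.49. Dnajc3 (p58IPK), a soluble partner that also restrains a kinase of the stress response, had 0.68 and 0.51, a change of 0.38. The membrane protein Dnajb14 had 0.36 and 0.24, a change of 0.51. Hspa13, a small microsomal relative of HSP70, had 0.21 and 0.13, a change of 0.55.

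Other genes of the ER folding machinery moved in the same direction. Of the 21 partner and stress response genes seen in enough cells, 18 were higher in the DBZ library, 6 of them by at least 1.5-fold (8.55% of all genes), and the median change was 0.39. Sdf2l1, an ER luminal partner of BiP, had the largest change, 0.82. Calr, the lectin chaperone calreticulin, was the most expressed, with 5.31 against 3.55 and a change of 0.57. Ero1l, an oxidase of the ER that is also induced by low oxygen, was the one gene lower by at least 1.5-fold, at -1.45. Markers of secretory cells differed between the libraries as well. The 14 Paneth markers summed to 273.6 with DBZ and 64.1 with DMSO, and the 7 goblet markers in the table to 21.6 and 4.22. Without the clusters named Paneth-like and enteroendocrine-like below, all 12 ER members were higher with DBZ, with a median of 0.29. That setting kept unnamed cluster 10 (39 DBZ and 7 DMSO cells), whose DBZ cells had a Paneth marker sum of 746.5. With this cluster left out too, a setting added after the data were seen, all 12 were higher and the median was 0.29. With no cells left out, 63.2% of all genes were higher. The cells kept in these settings still differed in Paneth markers, with a sum of 64.1 with DBZ and 9.76 with DMSO in cluster 0, though 30.9 and 32.4 in cluster 2. The part of secretory markers in the ER difference was not tested.

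The cytosolic members were more often lower in the DBZ library. Of the 19 seen in enough cells, 6 were higher and 13 lower, with a median of -0.14, and the summed level was 49.6 with DBZ and 56.5 with DMSO. Most of that sum came from 3 genes. Hsp90ab1, the constitutive cytosolic HSP90, gave the most UMIs of all members, at 18.2 and 19.2, a change of -0.08. Hspa8, the constitutive HSP70 that also uncoats clathrin vesicles, came next at 13.1 and 17.1, a change of -0.38 (pooled interval -0.43 to -0.37). Hsp90aa1, the stress-inducible HSP90, had 6.40 and 7.22, a change of -0.17. The change of Hsp90ab1 turned to 0.09 once the shared clusters were given equal weight and to 0.0046 without clusters 6, 9 and 10, described below, while Hspa8 and Hsp90aa1 kept their sign in 10 of 10 other settings.

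Hspa8 lies on chromosome 9, 40800984 to 40810087, plus strand, and was the cytosolic gene with the largest difference in UMIs. After thinning, at least 3 Hspa8 UMIs were held by 87.5% of the DBZ library (85.5 to 89.3%) and 94.6% of the DMSO library (93.0 to 96.0%), with medians of 6 and 8 UMIs. Nearly every cell of both libraries thus held Hspa8, and the libraries differed in UMIs per cell rather than in the share of cells with a UMI. Between the clusters described below, its level ran from 8.51 to 19.7 with DBZ and from 10.4 to 20.6 with DMSO. Inside the clusters shared by both libraries its change ran from -0.41 to 0.03. The part of the mix of clusters in the library difference was not tested.

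Dnajb1 had the lowest change of the members seen in enough cells. It encodes the heat-inducible HSP40 that works with cytosolic HSP70, and lies on chromosome 8, 83608193 to 83612653, plus strand. Its level was 0.34 with DBZ and 0.67 with DMSO, a change of -0.86 (pooled interval -1.05 to -0.74). The share of cells with a Dnajb1 UMI was 31.1% for DBZ (28.5 to 33.8%) and 49.6% for DMSO (46.4 to 52.8%). Thinned to 5000 UMIs, no Dnajb1 UMI was left in 86.0% (83.9 to 87.9%) and 75.0% (72.1 to 77.7%). Immediate early genes, which like heat shock genes are switched on within minutes, were also lower. All 17 seen in enough cells were lower with DBZ, 14 of them by at least 1.5-fold (4.66% of all genes were). The sum of the list was 44.2 against 86.9. From Fos (-1.98) to Jund (-0.08) the changes spanned the list. Their part in the Dnajb1 difference was not tested. Across cells, Dnajb1 and the summed immediate early list had a Spearman correlation of 0.01 in 1241 DBZ cells and 0.14 in 968 DMSO cells after thinning, which describes cells of a single library each. Most thinned cells held no Dnajb1 UMI, which limits how far this correlation can be read.

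Other cytosolic members differed in direction. Hsph1, the HSP110-type exchange factor HSP105, was higher in the DBZ library, with 0.52 and 0.33, a change of 0.57 (pooled interval 0.36 to 0.69). The share of cells with an Hsph1 UMI was 45.0% for DBZ and 32.8% for DMSO. Its relative Hspa4l, named after its value was seen, had 0.79 and 1.05, a change of -0.39. Dnaja1, the most abundant cytosolic DnaJ gene, had 2.68 and 2.66, a change of 0.01 that is smaller than its counting interval (-0.06 to 0.07) and turned to -0.10 after centring on the median gene. Dnajb6 had 2.1 and 2.34, a change of -0.15. Hspb1, the small heat shock protein HSP27, also named after its value was seen, had 0.13 and 0.17, a change of -0.27 whose pooled interval, -0.48 to 0.07, includes 0.

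**Figure D2:**
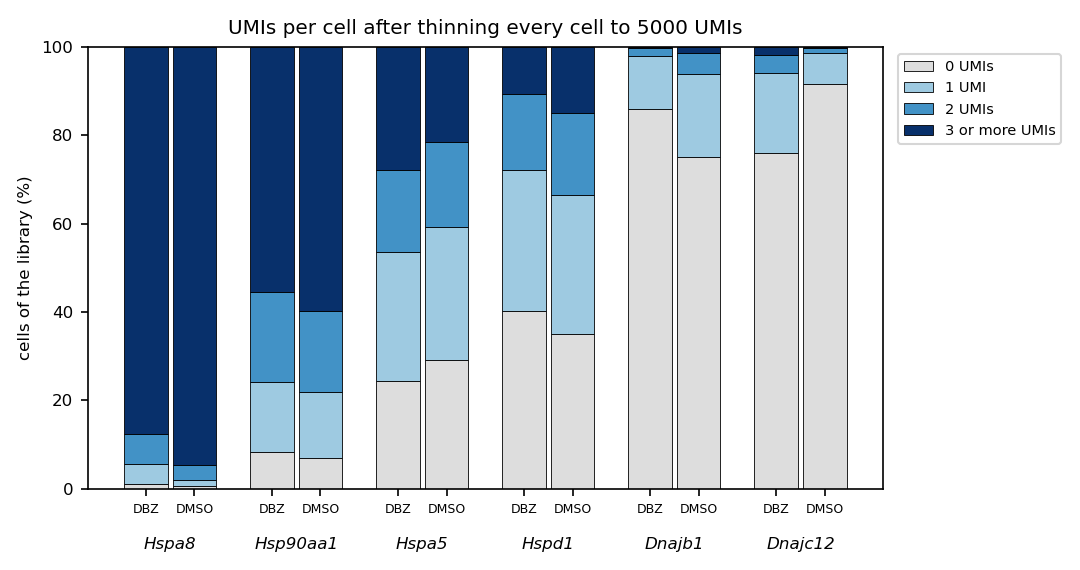
Share of cells (vertical axis, percent of the library) with 0, 1, 2 or at least 3 UMIs of 6 chaperone genes after every cell was thinned to 5000 UMIs, for DBZ and DMSO cells. No Dnajb1 UMI was left in 86.0% of DBZ and 75.0% of DMSO cells, and no Dnajc12 UMI in 76.0% and 91.7%, while Hspa8 was found in almost all cells of both.

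Hspa1a and Hspa1b, the strictly stress-inducible HSP70 genes, were rare. They lie side by side on chromosome 17, at 34969190 to 34972156 and 34956436 to 34959238, both on the minus strand. Their transcripts are identical at 94.2% of 2713 aligned bases, so the split of reads between them is uncertain. The share of cells with an Hspa1a UMI was 2.18% for DBZ (1.44 to 3.15%) and 5.89% for DMSO (4.49 to 7.56%), with 53 and 125 UMIs in all. The change of Hspa1a was -0.97, and the pooled ratio was -1.54 (-2.04 to -1.07). At levels this low the change depends on the pseudocount: it was -0.19 with 0.5 and -1.58 with 0.01 in place of 0.05. Without the highest cell of each library the change of Hspa1a was -0.74. A single DMSO cell gave 26.8% of the mean level of Hspa1a in its library. Hspa1b was found in 5.0% and 6.40% of cells, and its change of -0.20 had a pooled interval of -0.79 to 0.11. It turned to 0.05 with equal weight for the shared clusters.

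Cells with several Hspa1a or Hspa1b UMIs were few. At least 3 UMIs of the pair were found in 10 DBZ cells (0.806%, 0.387 to 1.48%) and 18 DMSO cells (1.86%, 1.11 to 2.92%). These cells held 40.1% and 53.1% of all UMIs of the pair, and the highest cell had 11 and 27. They were deeper than the cells without such UMIs, with medians of 17034 and 18163.5 UMIs against 10576 and 10742. Hspb1 was higher in them, at 1.07 against 0.10 with DBZ and 1.05 against 0.14 with DMSO. Hspe1 was at 4.59 against 4.05 with DBZ and at 6.48 against 4.24 with DMSO. Dnajb1 was at 0.68 against 0.33 with DBZ, but at 0.70 against 0.67 with DMSO. Hsp90aa1 was at 8.20 against 6.34 with DBZ and at 7.31 against 7.18 with DMSO. Hsph1 was at 0.61 against 0.52 with DBZ, but lower with DMSO, at 0.30 against 0.33. Of these cells, 4 of 10 with DBZ and 8 of 18 with DMSO lay in cluster 8, described below, where Hspb1 was at 1.00 and 0.45. The number of cells is small, and background from free RNA was not measured for these genes.

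The partners of the cytosolic chaperones changed little. Of the 30 co-chaperones and heat shock factors seen in enough cells, none passed 1.5-fold either way, 20 were lower, and the median was -0.07. Their changes ran from -0.44 for Bag2, an inhibitor of client ubiquitination, to 0.29 for Hsf2, a heat shock factor. Fkbp4, an HSP90 partner in steroid receptor folding, was the most expressed at 2.96 and 3.10, a change of -0.06. In the chaperonin and prefoldin list, which serves actin and tubulin, 11 of 13 genes seen in enough cells were lower, none by 1.5-fold, with a median of -0.12. The lowest was Cct5 (-0.34) and the highest Pfdn1 (0.18), and the most expressed, Pfdn5, had a change of 0.02.

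The mitochondrial members were mostly slightly lower. Of 8, 3 were higher and 5 lower, with a median of -0.07 and summed levels of 10.3 and 11.2. Hspe1 had 4.08 and 4.40, a change of -0.11, and its partner Hspd1 had 2.13 and 2.44, a change of -0.19. Hspa9 (mortalin), the mitochondrial HSP70 that pulls proteins through the import pore, had the lowest change, -0.23, with levels of 1.76 and 2.07. All 3 turned positive (0.08, 0.17 and 0.08 in that order) when the shared clusters were given equal weight. Dnajc19, an inner membrane DnaJ protein of the import motor, had the highest change, 0.15, with 0.91 and 0.82, and its pooled interval (-0.01 to 0.22) includes 0. Among 16 mitochondrial partners, Grpel2, a nucleotide exchange factor of Hspa9, had the largest positive change (0.57, with 1.79 against 1.19) and Hscb, a DnaJ protein of iron-sulfur cluster assembly, the lowest (-0.61). The median of that list was -0.02.

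Dnajc12 had the largest change of all members. It encodes a co-chaperone of the aromatic amino acid hydroxylases, the enzymes that start dopamine and serotonin synthesis, and was counted among the members outside the 3 compartments. It lies on chromosome 10, 63382443 to 63410576, plus strand. Its level was 0.65 with DBZ and 0.22 with DMSO, a change of 1.40 (pooled interval 1.43 to 1.86). The share of cells with a Dnajc12 UMI was 42.2% for DBZ (39.5 to 45.0%) and 17.6% for DMSO (15.2 to 20.1%). Enteroendocrine markers moved with it, with a sum over 17 markers of 21.4 against 5.48, of which all 17 had UMIs in DBZ cells and 14 in DMSO cells. Without the Paneth-like and enteroendocrine-like clusters the change was 1.48, with unnamed cluster 10, where its level was highest, still included. With cluster 10 left out as well, a setting chosen after the data were seen, it was 1.49. With the shared clusters given equal weight it fell to 0.33, below 1.5-fold. That setting leaves out clusters 3 and 10, where the DBZ levels of Dnajc12 were 0.85 and 1.79. Inside the shared clusters its change was -0.11 in the enteroendocrine-like one and between 0.28 and 1.06 in the others.

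Dnajc9, a co-chaperone of histones, stood at the other end of the members outside the 3 compartments, with 0.32 and 0.42, a change of -0.34. The pooled ratio, in which deep cells count more, was -0.64 (-0.80 to -0.48). Mitosis genes moved with it: all 18 were lower with DBZ, 8 of them by at least 1.5-fold (4.66% of all genes were). Their sum was 5.03 against 7.88. With equal weight for the shared clusters, Dnajc9 turned to 0.16.

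To place the members in cell states, cells of both libraries were clustered together on 2000 variable genes with the members left out, which gave 11 clusters numbered 0 to 10. A cluster was named only where at least 3 of its 10 leading genes were markers of a single class. Cluster 1 was Mitotic-like (129 DBZ and 156 DMSO cells, led by Ube2c, Nusap1 and Cenpf), cluster 6 Enteroendocrine-like (169 and 35, led by Ghrl, Reg4 and Scg2) and cluster 9 Paneth-like (64 and 8). The enteroendocrine-like cells also carried Paneth transcripts, with a marker sum of 680.2 with DBZ and 417.1 with DMSO. Of the clusters that stayed unnamed, cluster 3 was nearly all from the DBZ library (246 and 13 cells), and clusters 5 (9 and 202) and 7 (3 and 185) nearly all from the DMSO library. Such a cluster may reflect its library rather than a cell type. Values are given where at least 20 cells of a library were present.

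The summed level of the members was highest in the mitotic-like cells and in unnamed cluster 4. The members summed to 97.0 in mitotic-like DBZ cells and 103.8 in mitotic-like DMSO cells, and to 98.1 and 92.3 in cluster 4. The enteroendocrine-like cells (66.5 and 64.4) and Paneth-like DBZ cells (58.5) were lower. Much of the sum in cluster 4 came from Hsp90ab1 (27.1 and 23.8) and Hspa8 (19.7 and 20.2). By at least 1.5-fold, 4 members were higher and 10 lower in cluster 4 than in other DBZ cells (9.54% and 20.8% of all genes). Against other DMSO cells, 0 were higher and 4 lower (2.68% and 7.97% of all genes). Against the other cells of its library, the mitotic-like cluster had 6 members higher by at least 1.5-fold with DBZ (10.4% of all genes were) and 7 with DMSO (9.67% of all genes). 4 and 7 members were lower there by that margin (11.3% and 12.5% of all genes), among them Dnajc12, Dnajb2 and Hspa2 in both libraries, the last 2 named after their values were seen. Out of 52 members, the counts of higher members are near the shares of all genes. Both of the higher lists held Hspd1, Hspe1, Hsp90aa1, Dnajc9 and Hspa14.

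Dnajc9 showed the steepest state difference of these. It was at 1.14 in mitotic-like DBZ cells and 1.28 in mitotic-like DMSO cells, a log2 difference from the other cells of 2.12 and 2.13. Hsp90aa1 was at 9.57 and 12.0 (0.66 and 0.93), Hspd1 at 3.82 and 4.34 (0.96 and 1.05), and Hspe1 at 6.27 and 6.21 (0.71 and 0.61). Hspa14, a ribosome-associated relative of HSP70 named after its values were seen, was at 0.65 and 0.83 (1.21 and 1.34). The mitotic-like cells were also the deepest, with a median of 19820 UMIs per cell. Levels per 10000 UMIs remove the total, but the part of depth in these differences was not tested.

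**Figure D3:**
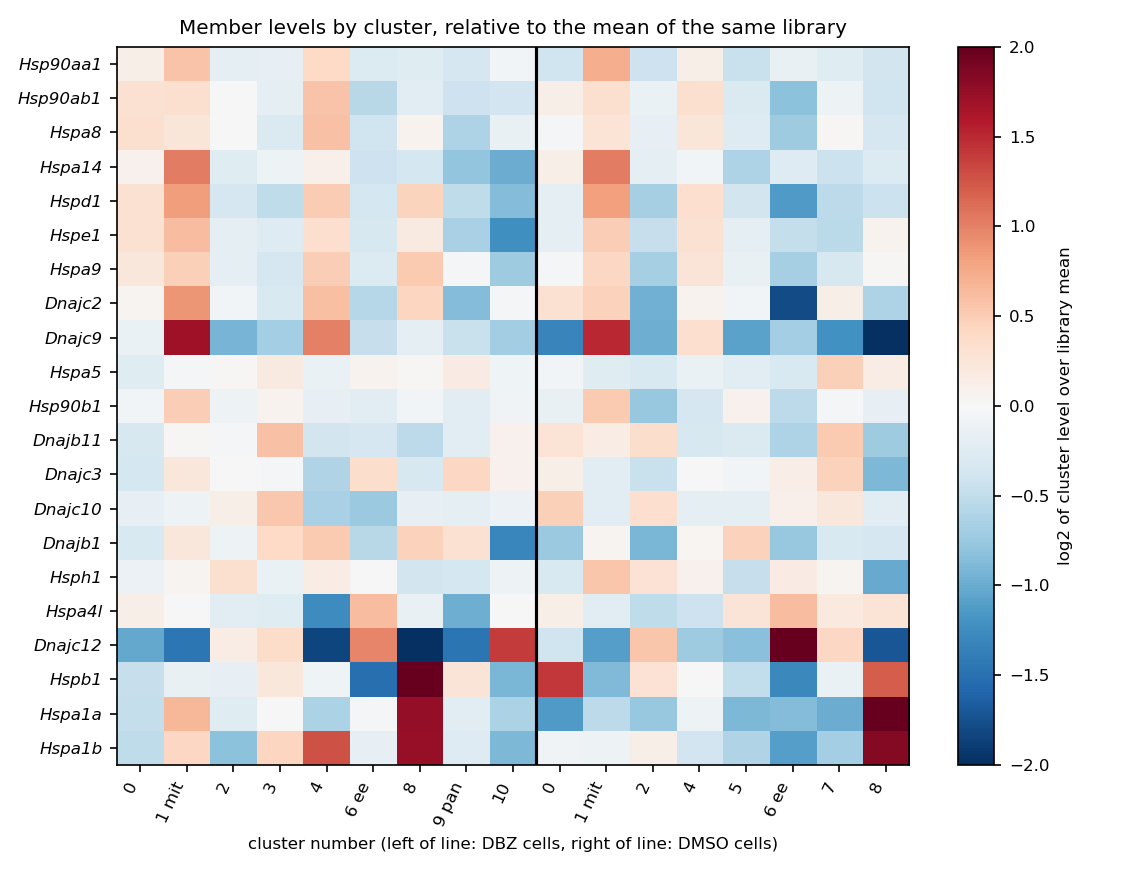
Log2 of the level of 21 chaperone genes in each cluster over the mean of the same library (colour, ends at -2 and 2), for DBZ cells left and DMSO cells right of the black line. Columns are clusters with at least 20 cells of the library (mit, mitotic-like; ee, enteroendocrine-like; pan, Paneth-like). Dnajc9, Hspd1, Hspe1 and Hsp90aa1 are red in the mitotic-like columns of both libraries, Dnajc12 in the enteroendocrine-like ones, and Hspb1, Hspa1a and Hspa1b in cluster 8.

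Dnajc12 was highest in cells of endocrine character. It was at 1.32 in enteroendocrine-like DBZ cells and at 1.43 in enteroendocrine-like DMSO cells, and its highest level was 1.79, in cluster 10 of the DBZ library (39 cells, led by Neurog3 and Neurod1, the factors that start the endocrine programme; unnamed, as only 2 markers were among its leading genes). The log2 difference between enteroendocrine-like and other cells was 1.21 with DBZ and 2.75 with DMSO. The lowest levels were in cluster 8, at 0.08 and 0.03, where a UMI was seen in 15.2% (DBZ) and 4.88% (DMSO) of cells, against 64.5% and 60.0% of enteroendocrine-like cells. In between stood clusters 3 and 2 of the DBZ library, at 0.85 and 0.72. Dnajc12 was thus also present in DBZ cells with few endocrine markers: the marker sum was 3.63 in cluster 3 and 2.23 in cluster 2, against 123.7 in enteroendocrine-like DBZ cells. Hspa4l was the other member higher by at least 1.5-fold in the enteroendocrine-like cells of both libraries, at 1.24 and 1.64 (0.74 and 0.65). Of all genes, 8.06% with DBZ and 20.8% with DMSO were higher there by that margin. Hsp90ab1 had its lowest level there in both libraries, at 12.4 and 10.8.

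The ER members had no single home among the clusters. In the DBZ library, Hspa5 ranged from 3.27 in cluster 0 to 4.44 in cluster 3, and Dnajb11 (1.31) and Dnajc10 (0.79) were both highest in cluster 3. In the DMSO library, Hspa5 was highest in cluster 7, at 4.34, against 2.50 to 3.44 in the others. Dnajb11 (0.88) and Dnajc3 (0.72) were highest in that cluster as well. Hspa5 in Paneth-like DBZ cells was 4.39, near the top of its range. In that cluster no member was higher by at least 1.5-fold (1.68% of all genes were) and 22 members were lower (46.7% of all genes), where a few defensin transcripts take a large part of the UMIs: the Paneth markers summed to 2214.9 per 10000.

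Dnajb1 did not mark a named state. Its highest level was in cluster 5 of the DMSO library, at 0.94 (Pmp22, Ndufa4l2 and Gdf15 lead it), and its lowest in cluster 10 of the DBZ library, at 0.11. Mitotic-like DMSO cells had 0.70 and mitotic-like DBZ cells 0.41. Cluster 8, which is led by Sprr1a, Hmox1 and Ero1l, of which Hmox1 is the heme oxygenase induced by oxidative stress, had high levels of Hspb1, Hspa1a and Hspa1b, named together after their values were seen. There Hspb1 reached 1.00 in DBZ cells and 0.45 in DMSO cells, Hspa1a 0.21 and 0.67, and Hspa1b 0.26 and 0.33. Other stress-inducible members differed there. Hsph1 had its lowest level in cluster 8 in each library, at 0.39 and 0.14. Hsp90aa1 was at 5.42 and 5.56, below the library means. The heat-inducible Dnajb4, named after its values were seen, was at 0.32 in DBZ cells of cluster 8. In DMSO cells of cluster 8 it was at 0.66, its highest level in that library. Dnajb1 was at 0.50 in DBZ cells of this cluster, above the library mean, and at 0.52 in DMSO cells, below it. Of the 52 members, 2 were higher and 6 lower by at least 1.5-fold than in other DBZ cells (11% and 22% of all genes), and 3 were higher and 13 lower than in other DMSO cells (7.31% and 19.6%). In the DMSO library Hspb1 was as high in cluster 0, at 0.52, but from 21 UMIs in 32 cells. Of the cells with at least 3 UMIs of Hspa1a or Hspa1b, 4 of 10 with DBZ and 8 of 18 with DMSO were in this cluster, which held 2.66% and 8.47% of all cells.

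The libraries were also compared inside the 6 clusters with at least 20 cells of each (0, 1, 2, 4, 6 and 8). The median change of the ER members was above 0 in each: 0.07, 0.43, 0.53, 0.27, 0.51 and 0.36 in that order, with 8, 10, 10, 11, 9 and 9 of 12 higher. Of all 8797 genes seen in enough cells, 4480, 5496, 4649, 4836, 4336 and 5237 were higher, in the same order. The medians of all genes were 0.01, 0.12, 0.03, 0.06, -0.01 and 0.12. The cytosolic medians were -0.01, -0.03, -0.08, -0.04, -0.30 and 0.12, and the mitochondrial ones 0.20, -0.04, 0.16, -0.03, 0.19 and 0.27. The ER median was thus above that of all genes within these clusters, by the least in cluster 0, while the cytosolic median was below that of all genes in 5 of them.

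The clusters did not level out the secretory markers. The Paneth marker sum was 64.1 with DBZ and 9.76 with DMSO in cluster 0, 51.2 and 12.3 in the mitotic-like cluster, 38.5 and 15.2 in cluster 4, 680.2 and 417.1 in the enteroendocrine-like cluster and 87.9 and 32.8 in cluster 8. It was 30.9 and 32.4 in cluster 2, the one of the 6 where it was not higher with DBZ. The goblet marker sum was higher with DBZ in all 6, with 45.9 against 2.57 in cluster 8, 2.84 against 0.63 in cluster 2 and 15.2 against 11.5 in the enteroendocrine-like cluster. Their part in the ER difference within the clusters was not tested.

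Single members differed more. Hspa5 had changes from 0.12 (cluster 0) to 0.70 (cluster 6), and Hsp90b1 from 0.20 to 0.90, both positive in all 6. Hsph1 was also positive in all 6, from 0.07 to 1.20. Dnajb1 was negative in all 6, but its change reached 1.5-fold only in the mitotic-like (-0.69) and enteroendocrine-like (-0.66) clusters, in which 3.59% and 13.2% of all genes were lower by that margin, and was -0.04 in cluster 2 and -0.07 in cluster 8. Dnajc12 was at 1.06 in the mitotic-like cluster, 0.99 in cluster 2 and 0.78 in cluster 0, but at -0.11 in the enteroendocrine-like cluster, where it is highest. Dnajc10 ran from -0.19 (cluster 6) to 0.77 (cluster 1). Hspa8 was at -0.41 in the mitotic-like cluster and between -0.23 and 0.03 in the others. The smallest of these groups have 26 DBZ cells (cluster 4) and 32 DMSO cells (cluster 0), so low genes rest on few UMIs there: Dnajc12 had 8 UMIs in cluster 0 of the DMSO library.

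**Figure D4:**
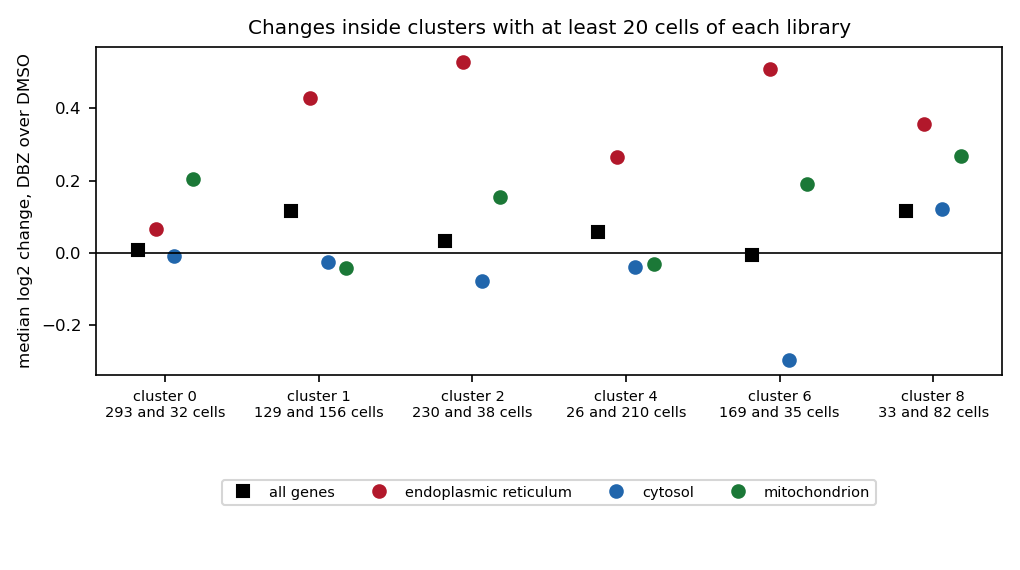
Median log2 change, DBZ over DMSO (vertical axis), of all genes and of the ER, cytosolic and mitochondrial chaperone genes inside each cluster with at least 20 cells of both libraries; cell numbers are DBZ first. The ER median lies above that of all genes in all 6 clusters, and the cytosolic median lies between -0.30 and 0.12.

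From cell to cell the members varied together only weakly. Over the 1326 pairs of the 52 genes, after thinning every cell to 5000 UMIs, the median Spearman correlation was 0.006 in 1241 DBZ cells and 0.003 in 968 DMSO cells, and 4 and 9 pairs reached 0.2. The highest was Hspa8 with Hsp90ab1, the main cytosolic pair, at 0.36 and 0.32. Hspd1 with Hspe1 had 0.20 and 0.30, Hspa8 with Hsp90aa1 0.20 and 0.21, and Hspd1 with Hspa8 0.20 and 0.20. For Hspa5 with Hsp90b1 the values were 0.28 and 0.16. Hsp90b1 followed the summed ER partner list at 0.43 and 0.21, and Hspa5 at 0.37 and 0.25. These are descriptions over cells that share a library and, for most genes, hold few UMIs.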

How the data were processed

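Per the labels' protocols, 1 library for each treatment was captured in droplets, with 3000 cells as the target. The submitters' processing notes name Cell Ranger 2.1.1, Seurat and mm10. How cells and genes were filtered is not stated there. The authors deposited natural log values (ln of 1 + 10000 times the share of a cell's UMIs). All 7553435 values above 0 were whole multiples of 1 UMI within 0.01, so UMIs were recovered. Columns beginning CTRL were read as DMSO and GSI as DBZ, from the meaning of the names. 3 cell barcodes occurred in both libraries.

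The pooled ratio of UMIs has an exact conditional 95% interval, and shares of cells exact Clopper-Pearson intervals. Clusters (2000 genes, 30 components, 15 neighbours, resolution 1) were made with scikit-learn 1.9.0, igraph 0.11.9 and leidenalg 0.10.2 in Python 3.11.15, leading genes being those in at least 25% of the cells of the cluster with the highest fold. No doublet caller was run. Scripts were tested on simulated data. Positions are from GENCODE M21, promoters from RefSeq.

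Members and lists were chosen with earlier results of these data known. Named members are those past 1.5-fold, the 10 most expressed, all Hsp90, Hspd, Hspe and Hsph rows, Hspa5, Hspa8, Hspa9, Hspa1a, Hspa1b and the extreme of each compartment. Of each pathway list, the highest, lowest and most expressed genes are named. Dnajb11, Dnajb14, Dnajc3, Hspa4l, Hspa13, Hspa14, Hspb1, Hspa2, Dnajb2, Dnajc25, Tph1, all members the filter left out and cluster leaders were named after their values were seen. So were Dnajb4 and Vim. Alternatives were another weighting, pseudocount, filter, fold, thinning, centring and clustering, and leaving out cells.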

Additional observations from a re-analysis of the deposited data

How the results depend on the processing

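The counts of 2 members higher and 1 lower by at least 1.5-fold in the DBZ library rest on values near that margin. The number higher was 4 with pooled UMIs, with a pseudocount of 0.01, with cells thinned to 5000 UMIs and without the Paneth-like and enteroendocrine-like clusters. It was 3 without unnamed cluster 10 as well, which was chosen after the data were seen. It was 1 (Dnajc12) with a pseudocount of 0.5, after centring on the median gene and at 2-fold, and 0 with the shared clusters given equal weight. The genes added were Hspa13 and one of Dnajb14, Hsph1 or Dnajc25. The number lower was 2 with pooled UMIs (Dnajc9 added) and with no filter on low values (Hspa1a added), and 0 with a pseudocount of 0.5 and at 2-fold. Equal weight for the shared clusters, which removes differences in cluster sizes and leaves out the other 5 clusters by construction, kept a count of 1 lower, but the gene was Hspa2 and not Dnajb1 (-0.38). All 12 ER members were higher in all other settings with that filter except thinning, where 11 were. Over the alternatives the change of Dnajb1 ran from -0.97 to -0.38, Dnajc12 from 0.33 to 1.65, Dnajc10 from 0.32 to 0.80 and Hspa8 from -0.49 to -0.13. At a coarser clustering (resolution 0.5) the difference of Dnajc12 between enteroendocrine-like and other cells was 1.42 with DBZ and 3.06 with DMSO. No paired analysis was possible because each group has 1 library. Depth limits the low members: of the 10 below the filter, none can be compared closely, and Hspb2 is listed at 0 in the DMSO library.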

Other observations

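Dnajc12, whose protein assists the aromatic amino acid hydroxylases, was also set beside Tph1, the tryptophan hydroxylase of serotonin-producing enteroendocrine cells. In the DBZ library 27 cells held a Tph1 UMI, and their Dnajc12 level was 1.61, with Dnajc12 UMIs in 77.8% of them (57.7 to 91.4%). The 1214 DBZ cells without a Tph1 UMI had a Dnajc12 level of 0.63, with UMIs in 41.4% (38.6 to 44.3%). Median depth was 10238 and 10917.5 UMIs. Inside the enteroendocrine-like cluster, the 154 DBZ cells without a Tph1 UMI still had a Dnajc12 level of 1.25. A UMI of a sparse gene marks only part of the cells that express it, and this comparison was chosen after the data were seen.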
